A study of Mus musculus with 6 samples.

Results

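Immediate early genes and genes switched on by cell dissociation were followed in sorted cells of the embryonic mouse midbrain. The 10 genes were Fos, Fosb, Jun, Junb, Egr1, Ier2, Atf3, Dusp1, Klf4 and Klf6, and every probe set whose platform symbol was exactly one of these names was taken, which gave 16 of the 45101 probe sets on the array. No probe set was annotated to one of the 10 genes together with another gene. Messenger RNA was measured on 6 microarrays, 1 per sample, from ventral mesencephalon at embryonic day 12.5, after dissociation and sorting by GFP fluorescence. The positive group was 3 biological replicates of GFP-positive cells of the Ngn2-GFP reporter line (CD1/129 strain), labelled as midbrain dopaminergic progenitors. The negative group was 3 biological replicates of GFP-negative cells of the Lmx1a-GFP reporter line (C57BL/6 strain), the non-dopaminergic reference of the study. Reporter line, strain and sort gate therefore coincided with the group on every array and cannot be told apart. The design asks which genes mark dopaminergic progenitors. The genes here bear on it because all cells were dissociated and sorted before RNA was extracted.

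Immediate early genes are transcribed within minutes of a stimulus from factors already present in the cell, with no need for new protein. Growth factor and stress signals reach them through MAP kinases, which act on serum response factor with its ternary complex partners and on CREB. Fos and Jun family proteins then pair to form AP-1, which acts on later genes, while products such as Dusp1 end the kinase signal. In tissue dissociated with enzymes the same genes are induced during preparation, so their messenger RNA in sorted cells can reflect handling as well as the cells' state in the embryo. Klf4 and Klf6 also have steady roles in non-dividing or differentiating cells and in blood vessels.

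Promoter sequences of Fos and Fosb are shown because these genes shared an array pattern described further on, and that of Klf4 because it was the 1 member called different between the groups. RefSeq promoters (GRCm38.p6) were matched for 8 of the 10 genes. Each line gives the 250 bases before the annotated start, 5′ to 3′ on the gene's strand, and capitals mark 3 motifs searched on both strands. The shares that follow are of 32851 RefSeq promoter windows of this length, so all 3 motifs are common. The core of the CREB/ATF recognition sequence, searched as TGACG, was held by 17.8% of them. A TATA box, which helps to place the start of transcription in many strongly inducible genes and was searched as TATAAA, was held by 12.4% of the windows. A GC box, the element bound by Sp1 and related zinc finger factors and searched as GGGCGG, was held by 32.7% of the windows.
Fos (chr12:85473640-85473889, plus strand): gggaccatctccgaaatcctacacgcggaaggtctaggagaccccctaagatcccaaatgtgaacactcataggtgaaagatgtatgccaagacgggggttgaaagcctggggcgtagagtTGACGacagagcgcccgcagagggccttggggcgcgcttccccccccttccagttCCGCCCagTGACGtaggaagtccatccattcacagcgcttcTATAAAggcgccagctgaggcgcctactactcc
Fosb (chr7:19310046-19310295, minus strand): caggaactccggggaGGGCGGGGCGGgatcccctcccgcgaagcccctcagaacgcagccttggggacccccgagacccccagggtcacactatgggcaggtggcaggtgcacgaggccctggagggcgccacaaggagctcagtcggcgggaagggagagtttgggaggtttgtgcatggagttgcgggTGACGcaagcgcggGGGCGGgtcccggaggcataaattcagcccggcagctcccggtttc
Klf4 (chr4:55532476-55532725, minus strand): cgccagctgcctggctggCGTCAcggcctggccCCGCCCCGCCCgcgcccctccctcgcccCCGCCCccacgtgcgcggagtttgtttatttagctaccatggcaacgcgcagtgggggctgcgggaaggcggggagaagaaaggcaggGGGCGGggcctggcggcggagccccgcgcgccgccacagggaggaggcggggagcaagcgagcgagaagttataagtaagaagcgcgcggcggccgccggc
Fos held the CREB/ATF core with its first base 129 and 66 bases before the start, a GC box on the opposite strand at 74 and a TATA box at 33. Fosb held the CREB/ATF core at 60, close to the nearer Fos copy, and GC boxes at 235, 230 and 46, the first pair overlapping by 1 base. Klf4 held the CREB/ATF core on the opposite strand at 232 and 4 GC boxes, a pair of which overlapped. Among the others, Dusp1 held the core at 191 and 143 and on the opposite strand at 140, the last 2 overlapping in 1 palindrome, Junb held it at 106 and Atf3 on the opposite strand at 7. Jun and Klf6 held 1 GC box each and no TGACG in this window. Variants of the CREB/ATF sequence without TGACG were not searched.

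The members fell into a bright and a dim class. Signals are MAS5 values on a linear scale, and the 40th percentile of each array, used here as the level above which a probe set counts as measured, lay between 10.2 and 15.8. Jun, Dusp1, Klf6 and Klf4 had a probe set above that level on all 6 arrays. Egr1 exceeded it on 4 arrays, Ier2 on 3, Fos on 2, Fosb and Atf3 on 1 each and Junb on none. Testing needed a signal over that level on 3 or more arrays, which left 12 probe sets of 6 genes and kept out Fos, Fosb, Junb and Atf3. Ier2 passed through the 3 negative arrays alone, and Egr1 mainly through them, so their entry to the test depended on the negative signals. The negative sign of their differences was therefore not independent of that entry. In such bulk samples fewer expressing cells and less RNA per cell cannot be told apart.

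**Figure D1:**
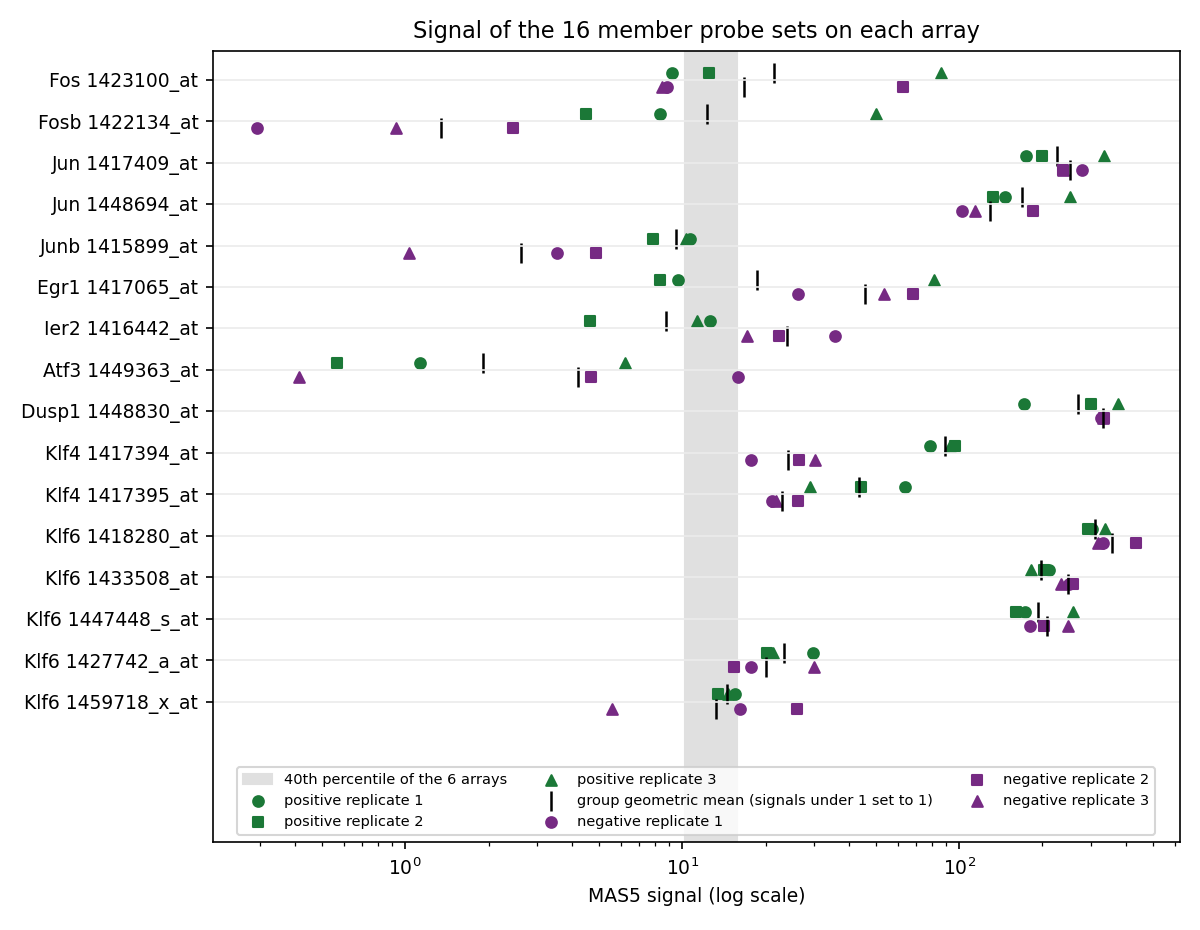
MAS5 signal (log scale) of the 16 member probe sets on the 3 positive (green) and 3 negative (purple) arrays, with black bars for the geometric mean of each group after signals under 1 were set to 1. Klf6, Jun and Dusp1 lie above the grey band of the 40th percentiles on every array in their brightest probe sets, while Junb lies in it or below it throughout.

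The Fos family was near background except on single arrays. Fos, the AP-1 subunit most used as a marker of acute induction, had signals of 9.23, 12.5 and 85.8 on positive replicates 1, 2 and 3 and of 8.84, 62.9 and 8.45 on negative replicates 1, 2 and 3. Only positive replicate 3 and negative replicate 2 stood above the 40th percentile, at the 74.0th and 69.3rd percentile of their arrays, and the groups overlapped. The log2 SD among replicates was 1.74 in the positive and 1.65 in the negative group (n = 3 each), against a difference between group means of 0.36 with a 95% interval of -2.25 to 2.97 in the fit without the filter (limma, adjusted p = 0.955). Fosb, its close relative, had 8.30, 4.50 and 50.3 on the positive arrays and 0.292, 2.45 and 0.930 on the negative arrays. Its positive values all lay above its negative ones, but only positive replicate 3 exceeded the 40th percentile, so no fold is given (adjusted p = 0.535 in the limma fit without the filter).

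The Jun family was split by level. Jun, the partner that binds DNA with Fos and can also pair with itself, had signals of 175, 199 and 332 on the positive and 278, 237 and 238 on the negative arrays in its brighter probe set, 1417409_at. Positive replicates 1 and 2 lay below all negative arrays and positive replicate 3 above them, and the difference was -0.15 (SE 0.26, limma adjusted p = 0.892, 95% interval -0.72 to 0.42). Its other probe set, 1448694_at, had 146, 132 and 251 against 102, 185 and 114, a difference of 0.39 (SE 0.31, adjusted p = 0.732). The probe sets of Jun thus differed in sign, with positive replicate 3 the highest array in each. Junb, a Jun relative that often restrains Jun, had 10.6, 7.82 and 10.4 against 3.53, 4.88 and 1.03, with the groups apart but no array above the 40th percentile.

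Egr1, a zinc finger factor induced through serum response elements, had the widest replicate spread of the tested members. Its signals were 9.62, 8.35 and 80.9 on the positive and 26.3, 68.0 and 53.4 on the negative arrays. Positive replicates 1 and 2 lay below every negative array and positive replicate 3 above every one. The log2 SD was 1.84 in the positive and 0.71 in the negative group (n = 3 each), and the difference of -1.29 (SE 0.75) did not pass the threshold of 0.05 (limma adjusted p = 0.624, 95% interval -2.92 to 0.34).

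The remaining regulators did not pass either. Ier2, a short-lived nuclear regulator, had 12.6, 4.63 and 11.4 on the positive arrays, none above the 40th percentile, and 35.7, 22.4 and 17.1 on the negative arrays. The groups did not overlap, and the negative mean was at least 1.86-fold above the positive one taken at its background level (limma adjusted p = 0.530). Atf3, a stress-induced repressor of the ATF/CREB family, had 1.13, 0.567 and 6.21 against 15.9, 4.68 and 0.413, and only negative replicate 1 exceeded the 40th percentile, by a narrow margin. Dusp1, the phosphatase that switches off MAP kinases, had signals of 172, 300.0 and 374 on the positive and of 325, 334 and 330 on the negative arrays. Its negative arrays nearly coincided (log2 SD 0.021, n = 3) while the positive arrays spread on either side of them (log2 SD 0.58, n = 3), and the difference was -0.30 (SE 0.27, adjusted p = 0.767).

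Klf4, a Krüppel-like factor known for its part in pluripotency and in vessel walls, was the 1 member called higher in positive cells. Its probe set 1417394_at had signals of 78.6, 96.6 and 93.0 on the positive and 17.7, 26.3 and 30.3 on the negative arrays. All 3 positive values lay far above the negative ones and above the 40th percentile, with a log2 mean of 6.48 ± 0.16 against 4.60 ± 0.40 (SD, n = 3 each). The difference was 1.88 (SE 0.36, 3.68-fold, 95% interval 1.10 to 2.66) with a limma adjusted p of 0.0354. The second Klf4 probe set, 1417395_at, drawn from the same source sequence, had 63.8, 44.3 and 28.9 against 21.1, 26.1 and 21.9. These groups did not overlap either, but the difference of 0.92 (SE 0.44) did not pass (adjusted p = 0.548), and positive replicate 3, next to the highest in 1417394_at, was the lowest positive array here.

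Klf6, a Krüppel-like factor induced by injury, had 5 probe sets with small differences. Its probe set 1418280_at had 302, 292 and 335 on the positive and 330, 435 and 317 on the negative arrays, a difference of -0.21 (SE 0.22, limma adjusted p = 0.799). In 1433508_at the positive values of 210, 202 and 182 all lay below the negative values of 250, 258 and 233. That difference of -0.32 (SE 0.21) did not pass (adjusted p = 0.673), although the log2 SD within groups was only 0.093. The other 3 probe sets of Klf6 had differences of -0.11 (1447448_s_at), 0.22 (1427742_a_at) and 0.13 (1459718_x_at), with groups that overlapped in each. The suffixes _s_at and _x_at mark probe sets that may detect other transcripts.

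**Figure D2:**
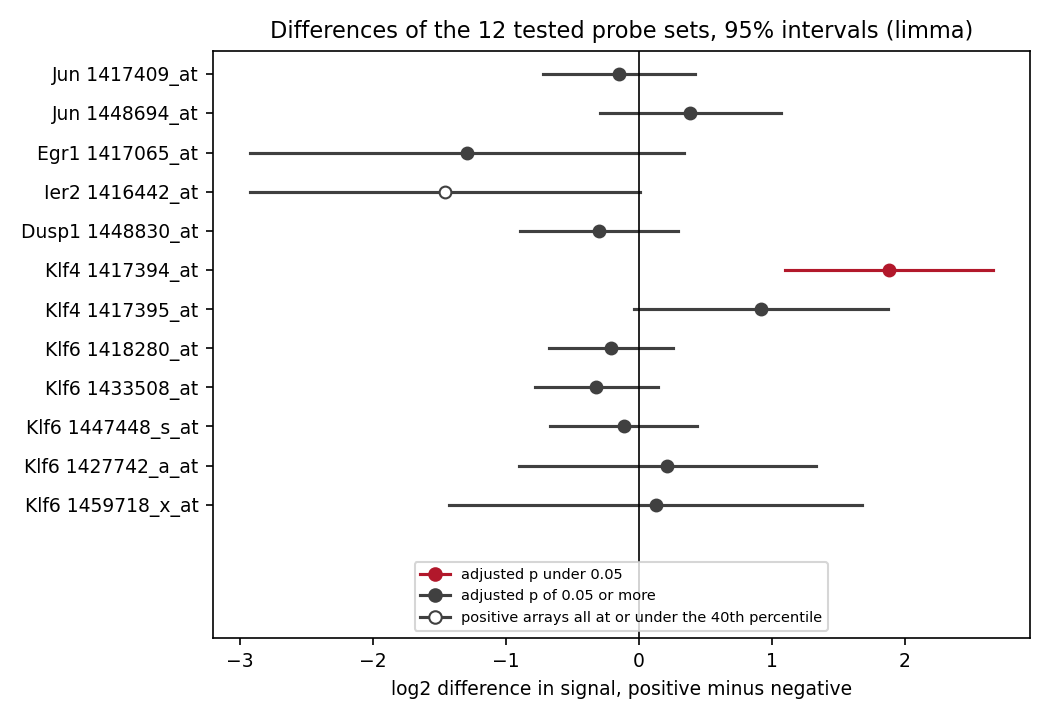
Log2 difference in signal, positive minus negative, of the 12 tested member probe sets (y axis), with 95% intervals of the limma fit. The interval of Klf4 1417394_at lies above 0 and the other 11 include it, and the open point marks Ier2, whose positive arrays were all under the 40th percentile.

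Across the whole array 27738 probe sets were tested and 149 called, which is 0.537%, with 0.187% higher and 0.35% lower in positive cells. Of the 12 tested member probe sets 1 was called, higher, and none lower. At an unadjusted p under 0.05 the count was also 1 of 12, against 9.43% of all tested (limma). Without the filter no member was called, against 0.0799% of all probe sets. The groups of 3 did not overlap in 4 of the 12, with 2 higher and 2 lower in positive cells, against 13.9% of all tested probe sets (7.96% higher and 5.98% lower). The 2 higher were both probe sets of Klf4. The 2 lower were Klf6 1433508_at and Ier2, which passed the filter through the negative arrays alone. Over all 16 the groups did not overlap in 6, against 12.5%. Differences were negative in 7 of the 12, with a median of -0.13, against a median of 0.06 over all tested probe sets. The 11 probe sets that were not called had adjusted p between 0.530 and 0.973 (limma).

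The call of Klf4 was sensitive to the settings while its size was less so. With 1 array left out the difference lay between 1.66 and 2.04, and the adjusted p was 0.149 and 0.286 without positive replicates 1 and 2, 0.0476 without positive replicate 3, and 0.0993, 0.0939 and 0.0605 without negative replicates 1, 2 and 3. Over 17 alternatives in all it stayed under 0.05 in 6. With the mean of the 2 Klf4 probe sets the difference was 1.40 (adjusted p = 0.0695). The other 15 member probe sets were called in none of their alternatives.

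**Figure D3:**
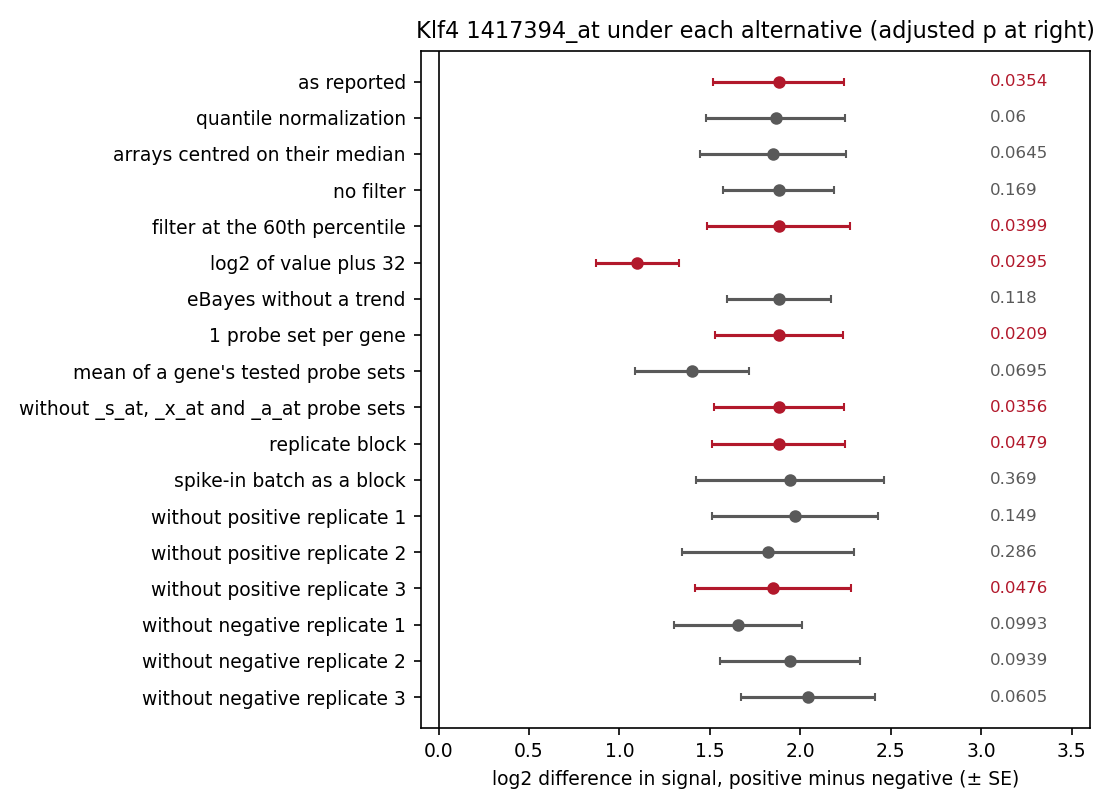
Log2 difference of Klf4 1417394_at, positive minus negative, with its SE (x axis) as reported and under 17 alternatives (y axis), with adjusted p at the right. All differences lie between 1.10 and 2.04, and red marks those with an adjusted p under 0.05.

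Positive replicates 1 and 2 differed from the other 4 arrays in control probe sets and in summed signal. Several members followed the same split, which was also common among the brightest genes. Positive replicate 3 was the highest positive array for 4 of the 6 tested members. The share was 36.6% of all tested genes and 79.2% of the 1205 with the highest mean signal. Probe sets within 0.5 log2 units of a member's mean signal were also ranked by the ratio of positive replicate 3 to positive replicates 1 and 2. A larger ratio was found in 2.39% for Jun 1417409_at, 3.82% for Dusp1 and 0.0192% for Egr1. For Ier2, Klf4 1417394_at and Klf6 1418280_at the shares were 16.6%, 30.7% and 30.9%. Summed over all tested genes the signal was 3.23e+06 to 3.27e+06 on positive replicates 1 and 2 and 3.67e+06 to 4.04e+06 on the others. Hybridization spike-ins averaged 2293 to 2352 on positive replicates 1 and 2 and 4254 to 6560 on the others. For 18S ribosomal RNA probe sets it was 3696 to 3713 against 7241 to 9276. For Gapdh the 3' probe set exceeded the 5' one 4.41 to 4.73 times on positive replicates 1 and 2 and 5.94 to 9.21 times elsewhere. The same ratio for actin went slightly the other way, at 1.15 to 1.16 against 0.969 to 1.14. When this split was added to the fit as a block, the comparison rests on positive replicate 3 against the negative arrays. Klf4 then differed by 1.94 (SE 0.52, limma adjusted p = 0.369), Egr1 by 0.82 (SE 0.68, adjusted p = 0.999) and the brighter Jun probe set by 0.41 (SE 0.30, adjusted p = 0.999). Egr1, Dusp1, Jun 1417409_at, Klf6 1447448_s_at and the untested Atf3, none of them called, turned sign under that block, and Klf4 1417394_at did not. Whether the split accounts for the values on positive replicates 1 and 2 was not tested.

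The pattern that set Fos, Fosb and Egr1 apart from the others was a high value on positive replicate 3. On positive replicates 1 and 2 all 3 genes lay under the 40th percentile, so only a bound can be given. With those arrays taken at their 40th percentile, positive replicate 3 was at least 6.30-fold higher for Fos, at least 3.69-fold for Fosb and at least 5.93-fold for Egr1. This comparison was chosen after the values were seen. For Jun (1417409_at) and Dusp1, measured on all arrays, the ratio of positive replicate 3 to the geometric mean of positive replicates 1 and 2 was 1.78 and 1.65, against medians of 0.931 and 0.949 among probe sets within 0.5 log2 units of their mean signal, and for Klf4 (1417394_at) and Klf6 (1418280_at) it was 1.07 and 1.13. It depended on the probe set, being 1.81 for Jun 1448694_at, 0.543 for Klf4 1417395_at and 1.55 for Klf6 1447448_s_at. In the remaining Klf6 probe sets it lay between 0.869 and 1.01. In the listed signals, those under the 40th percentile included, at least a 2-fold excess over both other arrays of the group was seen for 4 member probe sets on positive replicate 3 (Fos, Fosb, Egr1 and Atf3, the last of these under the 40th percentile). It was seen for 2 on negative replicate 2 (Fos and Fosb, the latter under the 40th percentile), for 1 on negative replicate 1 (Atf3) and for none on the other 3 arrays. Of all probe sets, 6.41%, 4.11% and 6.02% had such an excess on positive replicates 1, 2 and 3 and 10.2%, 7.51% and 4.56% on negative replicates 1, 2 and 3. Fos was thus high on 1 array of each group. Egr1 was above the 40th percentile on positive replicate 3 and all negative arrays, though only at the 50.7th percentile on negative replicate 1.

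**Figure D4:**
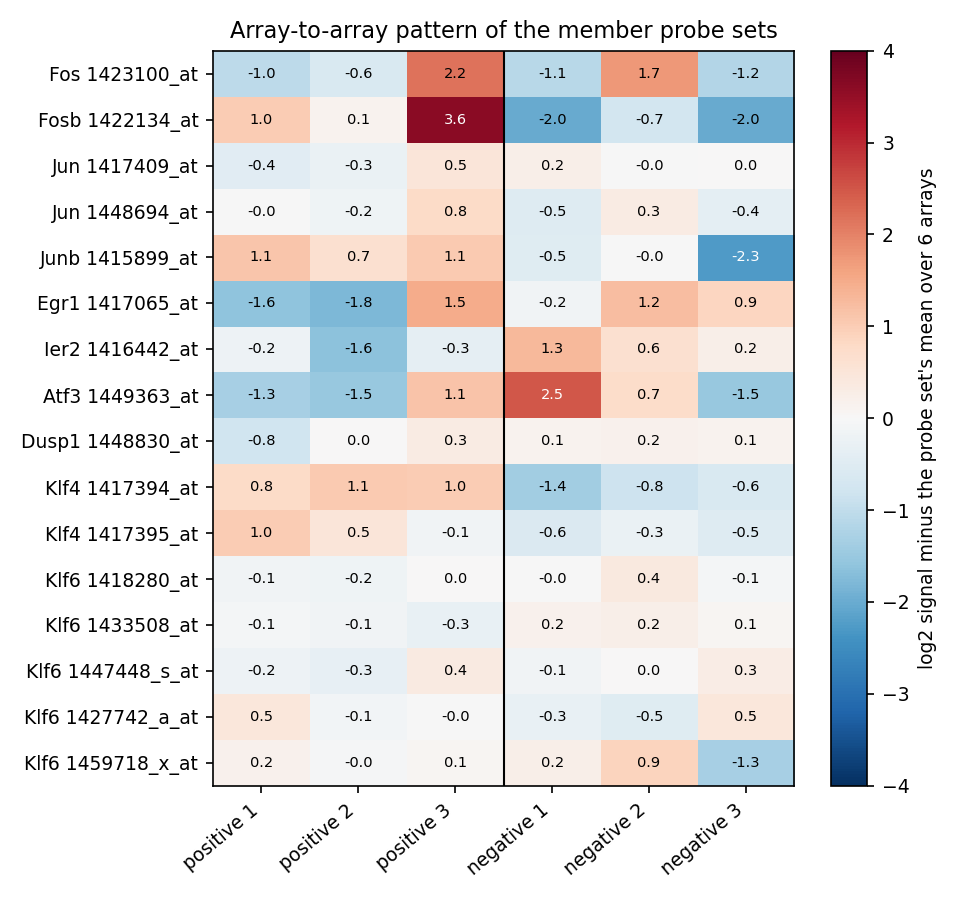
Log2 signal of each member probe set (rows) on each array (columns) minus its mean over the 6 arrays, with signals under 1 set to 1. Red is above and blue below the mean, and the vertical line parts the groups. Fos, Fosb and Egr1 are red on positive replicate 3, and Klf4 1417394_at is red on all 3 positive arrays.

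Related genes were read from lists of pathway members, with 1 probe set per gene in a fit over 12044 genes, of which 1.06% were called, 0.423% higher and 0.639% lower in positive cells. Of 33 tested other immediate early genes, 1 was lower and none higher, 20 of them below 0 and the median -0.15, against a median of 0.03 over all genes. The lower one was Zfp36l1, which promotes decay of messenger RNAs with AU-rich elements. Its signals were 259, 152 and 333 on the positive and 633, 864 and 725 on the negative arrays, without overlap. The difference was -1.64 (SE 0.27, limma adjusted p = 0.0102), and it was lost without negative replicate 2 (-1.52, adjusted p = 0.0633) or 3 (-1.65, adjusted p = 0.0527) with the array split as a block (-1.14, adjusted p = 0.359), with no variance trend (adjusted p = 0.149) or with no filter (adjusted p = 0.125). Leaving out positive replicate 3 makes the array split the same as the groups, and the count of lower genes was then 3, with Jund and Atf4 besides Zfp36l1. In that fit 1 heat shock gene, Hspa8, and 1 upstream gene, Mapk10, were lower too. Over all genes of that fit 2.81% were lower, against 0.639% in the fit of all arrays, so calls of lower genes were more frequent there across the array.

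Heat shock and upstream genes had no call in the fit of all arrays. Of 12 tested heat shock genes 7 lay below 0, the median being -0.24. The brightest was Hspa8, a constitutive chaperone, with signals of 2748, 2490 and 6880 on the positive and 6781, 7624 and 5121 on the negative arrays, a difference of -0.83 (SE 0.35, limma adjusted p = 0.417). Dnaja1, its cochaperone, differed by -0.27 (SE 0.23). Positive replicate 3 was the highest positive array for 10 of the 12, against 36.6% of all genes and 79.2% of the 1205 genes with the highest mean signal. Of 16 tested kinases and factors upstream of the members, 10 lay above 0, the median being 0.10. The brightest, the neuronal stress kinase Mapk10 and the CREB relative Atf2, differed by -0.87 (SE 0.26, limma adjusted p = 0.217) and -0.23 (SE 0.24, adjusted p = 0.755). Srf, which encodes serum response factor, had signals of 395, 344 and 711 on the positive and 325, 386 and 644 on the negative arrays, with groups that overlapped.

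**Figure D5:**
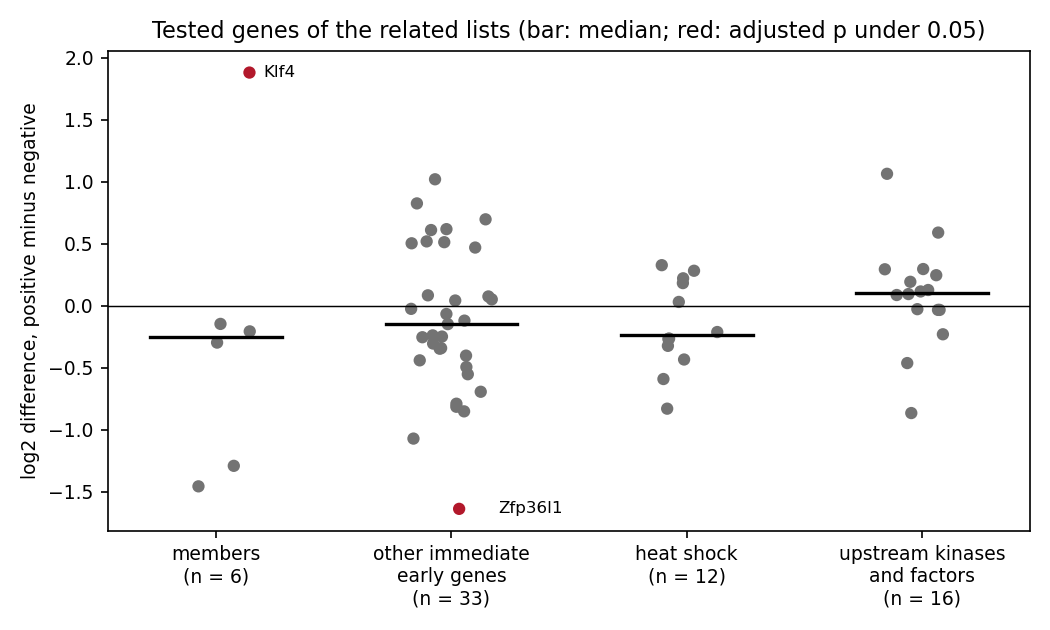
Log2 difference, positive minus negative, of each tested gene (points) in the member list and 3 related lists, with bars for the medians and red for an adjusted p under 0.05 in the gene fit. Klf4 and Zfp36l1 are the 2 red points, and each median lies between -0.25 and 0.10.

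Markers of other cells were measured beside these values, since macrophages and vessel cells express several members. Of 16 microglia and macrophage markers 10 were tested and 5 were lower in positive cells, including Csf1r (at least 15.4-fold) and Aif1 (at least 3.64-fold), and their summed signal was 103 to 111 on the positive and 721 to 1440 on the negative arrays. Of 10 erythroid markers on the array 6 were tested and 5 were lower, including Hba-x (at least 56.1-fold) and Hbb-bh1 (at least 55.0-fold). Over the tested genes the sums were 911 to 1233 against 8139 to 15425. Tfrc, which was not called, gave 537, 778 and 615 of the positive sums and Hbb-y gave 331, 273 and 574. Hbb-y gave 9974, 12429 and 6565 of the negative sums. The positive sums thus rest largely on Tfrc and Hbb-y, and the negative sums on Hbb-y. Csf1r, Aif1, Hba-x and Hbb-bh1 were under the 40th percentile on all positive arrays and entered the test through the negative arrays alone. With any 1 negative array left out such genes are no longer tested, and the counts of lower genes were then 2 of 6 to 7 microglia and macrophage markers and 2 of 4 erythroid markers. With the array split as a block they were 3 of 10 and 4 of 6. Of 4 tested endothelial markers and 6 of pericytes and mesenchyme none was called, and their sums overlapped, at 67.2 to 102 against 56.7 to 86.0 and at 86.0 to 142 against 103 to 136. The brightest were Egfl7 and Eng for endothelium and Col1a2 and Rgs5 for pericytes and mesenchyme, and 11 of 15 endothelial markers on the array were too dim to test. No marker was listed at 0, and Aif1 was under 1 on all 3 positive arrays. The part of these cells in the values of Ier2, Egr1 and Klf4 was not tested. Of 10 markers of the labelled cells 3 were called higher in positive cells, namely Lmx1a, Th and Nr4a2. Neurog2, the gene of the positive reporter, differed by 0.75 (SE 0.21, limma adjusted p = 0.155) and was not called, nor were Foxa2 (adjusted p = 0.597) and Corin (adjusted p = 0.288). These 6 lay above 0. The other 4 lay below 0 and were not called, namely Nes (-0.006), Sox2 (-0.22), Tubb3 (-0.30) and Dcx (-0.45). Lmx1a was under the 40th percentile on all negative arrays and entered the test through the positive arrays alone. Its bound was at least 9.65-fold, and the negative cells were themselves sorted as negative for the Lmx1a-GFP reporter. Th had 12.2, 1.44 and 10.5 on the negative arrays, near or under that level. Without the filter neither Lmx1a (limma adjusted p = 0.0656) nor Th (adjusted p = 0.107) passed. Th did not pass without a variance trend either (limma adjusted p = 0.0772). With any 1 positive array left out Lmx1a was no longer tested. With the array split as a block, which rests on positive replicate 3, Lmx1a and Th were no longer called. Under that block Th differed by 4.38 and Nr4a2 by 2.35. Nr4a2, an orphan receptor that is both an immediate early gene and a dopaminergic factor, had signals of 1816, 1780 and 3178 on the positive and 552, 938 and 469 on the negative arrays, so positive replicate 3 was its highest array too. Its difference of 1.80 (SE 0.30, limma adjusted p = 0.00932) did not pass without negative replicate 1 (adjusted p = 0.0599) or 3 (adjusted p = 0.0646), without a variance trend (adjusted p = 0.149) or without the filter (adjusted p = 0.129).

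By distance between array profiles, the genes most like the mean profile of the 6 tested members were Arhgap12, Serf1, Col4a5, Fnbp1l and Nme2. The root mean square distance over the 6 centred log2 values was 0.047 to 0.073 for these genes. The members lay farther from their own mean, from 0.17 for Jun to 0.98 for Egr1 and 1.13 for Klf4. That contrast was largely set by the choice, since the other genes were picked as the nearest of all tested. The mean profile was -0.40, -0.47 and 0.49 on the positive and 0.02, 0.26 and 0.10 on the negative arrays. Its gap between positive replicate 3 and positive replicates 1 and 2 was not common to the 6 genes. In the brightest probe set of each gene, used here, the gap was wide in Egr1 and narrow in Klf4 and Klf6. In Ier2, under the 40th percentile on all positive arrays, positive replicate 3 lay between positive replicates 2 and 1 (11.4 against 4.63 and 12.6).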

How the data were processed

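Values are the authors' deposited intensity per probe set (45101 on each of 6 arrays), linear in scale. The submitters' processing notes name MAS5 and R 2.14.2. RNA content per cell is not measured. The 64 control probe sets were left out and log2 was taken with 1 as the lowest signal. Probe sets over the 40th percentile on 3 or more arrays entered limma 3.58.1 (R 4.3.3, mean-variance trend, two-sided, Benjamini-Hochberg over all tested probe sets, threshold 0.05). Lists used 1 probe set per gene, the tested one with the highest mean log2 signal. A group above the 40th percentile on no array has only a bound, the other mean over the higher, per array, of signal and 40th percentile. Named were all member probe sets, list genes past the threshold or else the 2 brightest (2 per marker list), and the 5 genes nearest in profile, while Srf and the genes called without positive replicate 3 were named beyond this rule. Gene symbols are those of the platform annotation. Members, lists and alternatives were chosen with earlier results of these data known. Alternatives were other normalizations, filters, offsets, probe set choices and blocks, and leaving out each array. The fit was tested on simulated data. The number of arrays limits precision. Figures were drawn with matplotlib 3.10.9.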

Additional observations from a re-analysis of the deposited data

How the results depend on the processing

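Of the 16 member probe sets, Klf4 1417394_at was called as reported and under 6 of 17 alternatives, and the count of members higher was 0 with quantile normalization, median centring, no filter, no variance trend, averaged probe sets per gene or the array split seen in the spike-ins as a block, and 0 to 1 with 1 array left out. The count over all tested probe sets, 149 as reported, was 36 (9 higher, 27 lower) without the filter, 56 (15 and 41) without a trend, 60 (15 and 45) under that block, and 98 (57 lower) without the _s_at, _x_at and _a_at types. With 32 added before log2, 82 were higher. With 1 array left out it was 64 to 701 (18 to 147 higher, 36 to 554 lower), the highest without positive replicate 3, when array split and group are the same. The replicate numbers did not pair the arrays, with correlations of deviations of 0.157, -0.0824 and 0.0587 for the same numbers, and positive replicates 2 and 3 correlated best with another number. With the replicate block 143 probe sets were called and Klf4 had an adjusted p of 0.0479.

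Signs turned only for members that were not called. Under the array split block the differences were 0.41 for Jun 1417409_at, 0.82 for Egr1, 0.18 for Dusp1 and 0.31 for Klf6 1447448_s_at. With 1 array left out they ranged from -0.42 to 0.039 for Jun 1417409_at and from -0.54 to 0.024 for Dusp1, above 0 without positive replicate 1. The range was -0.32 to 0.020 for Klf6 1447448_s_at, above 0 without positive replicate 2 or negative replicate 3, and -0.50 to 0.61 for 1459718_x_at, below 0 without negative replicate 3. The untested Fos, 0.36 as reported, ranged from -0.64 to 1.31 with 1 array left out, below 0 without positive replicate 3 (-0.64), negative replicate 1 (-0.10) or negative replicate 3 (-0.13), and the untested Atf3, -1.14 as reported, was 0.56 under the array split block. The mean of the Jun probe sets gave 0.12, and 32 added before log2 gave -0.019 for 1459718_x_at. Why these signs turned was not tested. List counts under these settings were added after the data were seen. Signals near the 40th percentile limit what can be said of Fos, Fosb, Junb, Atf3 and Ier2.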

Other observations

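Immediate early genes that were too dim to test differed in their array patterns. Fosl1, a Fos relative, had signals of 54.6, 26.3 and 0.545 on positive replicates 1, 2 and 3 and of 4.42, 10.4 and 9.93 on the negative arrays, so among the positive arrays it was high on the 2 where Fos was low, while on the negative arrays no such contrast was seen. Ier3 had 0.746, 1.81 and 25.4 on the positive arrays and 1.85, 14.6 and 9.76 on the negative arrays, with its highest value on positive replicate 3. Arc had 13.1, 5.93 and 8.66 against 19.1, 0.810 and 8.93, and Nr4a1 had 7.49, 11.2 and 7.82 against 10.3, 15.9 and 15.2. These 4 genes were chosen after their values were seen.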
